A study of Homo sapiens with 4 samples.

Results

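The chaperonin CCT, also called TRiC, is built from 8 different subunits, and the transcripts of its 8 genes, TCP1, CCT2, CCT3, CCT4, CCT5, CCT6A, CCT7 and CCT8, were followed in Jurkat cells exposed to GNE987. The members were the rows of the gene table with these names, 8 of 26733 rows, and all 8 were among the 15910 genes that passed the filter on low counts. Polyadenylated RNA was sequenced in 4 libraries, 2 of GNE987-treated and 2 of untreated cells; the labels state 25 nmol, with no volume, and 24 h. Jurkat is an established line from a human T-cell acute lymphoblastic leukaemia, so both groups are samples of 1 line. GNE987 is a chimeric degrader that brings BET bromodomain proteins, which read acetylated chromatin, to the VHL ubiquitin ligase. The labels do not say whether replicates were separate cultures, so p-values measure the spread between these libraries, which may be technical.

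CCT is a cytosolic folding machine of 2 stacked rings, and each ring holds every subunit once. Newly made actin and tubulin need it to reach their native state, as do several WD-repeat proteins, and the prefoldin complex hands unfolded chains to it. The subunits are related ATPases, and in each ring they stand in a fixed order, CCT6A, CCT8, CCT7, CCT5, CCT2, CCT4, TCP1 and CCT3, closing back on CCT6A. Growing cells make much of it, leukaemia cells among them.

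The 8 messages were not all called the same way. Transcripts of 5 subunits, CCT2, CCT4, CCT5, CCT3 and CCT7, fell with GNE987, while those of TCP1, CCT8 and CCT6A did not pass the test in either direction. With TMM scaling, all 4 libraries and the standard filter none of the 8 was higher in edgeR, even at an unadjusted p below 0.05, and none was called higher in DESeq2, but 3 other settings called TCP1 higher, as given below. The 5 falls ran from 69.3% below the untreated level for CCT2 to 29.3% below it for CCT7. Over all genes tested, 71.6% passed the same threshold, an adjusted p below 0.05 in edgeR's quasi-likelihood test, 37.2% lower and 34.4% higher, so 5 called of 8 is a share near that of genes in general. The median log2 fold change of the 8 was -0.72, beside -0.03 for all tested genes, whose quartiles were -1.23 and 1.14.

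Total counts were between 16041022 and 17024157 in the treated libraries and between 18441248 and 18938465 in the untreated ones, and single CCT subunits had 1715 to 17578 counts per library, which alone gives a counting error of 2.41% to 0.754%. Between replicates a subunit differed by at most 0.297 log2 units in the untreated pair and by at most 0.0918 in the treated pair. In the 5 fallen subunits untreated replicate 2 lay 16.1% to 22.9% of the log2 distance from untreated replicate 1 towards the treated cells. For TCP1 and CCT6A the displacement was 9.92% and 50.5%, while for CCT8 it was away from the treated cells. With 2 untreated libraries neither can be named the deviating one. Fold changes of the 5 are therefore also given with either one left out. Of 9 T-cell markers 7 fell and 1 (CD7) rose with GNE987, beside 37.2% lower and 34.4% higher over all genes. Their summed level was 1410 and 1543 CPM in treated libraries, against 2619 and 2482 CPM in untreated ones. CD3D and CD3E were expressed in every library. Myeloid markers moved the other way. Their summed level was 142 and 147 CPM in the treated libraries, against 0.539 and 29.7 CPM in untreated replicates 1 and 2. In the treated libraries most of that level was MPO (72.6 and 77.3 CPM) and ITGAM (43.1 and 40.4 CPM), neither of them called. CSF1R and LYZ, both near 1 CPM, and CD14 rose. These 3 calls were 0 with either treated library left out, 1 with DESeq2 or the 10 CPM filter and 5 without untreated replicate 2. CPM are counts scaled to the TMM library size. The part of these markers in the CCT results was not tested. Summed B-cell markers were at 97.6 and 107 CPM with GNE987 and at 40.9 and 51.3 CPM without, nearly all of it CD79A.

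CCT2, the beta subunit, which has also been described as a receptor that sends protein aggregates to autophagy, fell the furthest. It had 132 and 133 CPM in the GNE987 libraries, against 477 and 388 CPM in the untreated ones. Both treated libraries were far below both untreated ones, and the treated pair differed by less than the untreated pair. The log2 fold change was -1.70 ± 0.15 (SE), or 30.7% of the untreated level (adjusted p = 0.00067, edgeR quasi-likelihood test with Benjamini-Hochberg adjustment, as below). In bulk RNA fewer cells carrying a message and less of it per cell cannot be told apart. CCT2 lies on chromosome 12 from 69585334 to 69601570 on the plus strand (GRCh38, GENCODE).

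CCT4, the delta subunit, which stands beside CCT2 in the ring, had 131 and 124 CPM with GNE987, against 342 and 280.2 CPM without. The groups did not overlap, and untreated replicate 2 was the lower of the untreated pair, as it was for CCT2. The log2 fold change was -1.29 ± 0.15 (adjusted p = 0.00149). CCT5, the epsilon subunit, whose inherited variants cause a sensory neuropathy, flanks CCT2 on the other side. Its level was 235 and 239 CPM in treated libraries, against 513 and 430.0 CPM in untreated ones, a log2 fold change of -0.99 ± 0.14 (adjusted p = 0.00286). All 3, which are neighbours in the ring, were called lower, but the placement of the calls in the ring was not tested. CCT4 lies on chromosome 2 from 61868089 to 61888804, minus strand, and CCT5 on chromosome 5 from 10249921 to 10266412, plus strand.

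CCT3, the gamma subunit, on chromosome 1 from 156308968 to 156367873, was the second most abundant of the 8 in untreated cells. It had 329 and 342 CPM with GNE987, against 687 and 598 CPM without, and its log2 fold change was -0.94 ± 0.14 (adjusted p = 0.00298). CCT7, the eta subunit, on chromosome 2 from 73233420 to 73253021, was the most abundant in every library per length and fell the least of the 5. It stood at 535 and 533 CPM in the treated libraries, against 789 and 722 CPM in the untreated ones. The treated libraries were both lower, by -0.50 ± 0.13 on the log2 scale (adjusted p = 0.0177). That call was lost when GNE987 replicate 1 (adjusted p = 0.136) or replicate 2 (0.134) was left out, which leaves only the untreated pair to estimate the spread, and also with upper-quartile scaling (0.0925) or a filter of 10 CPM in 2 libraries (0.0564). Leaving out untreated replicate 2 gave log2 fold changes of -1.84 for CCT2, -1.42 for CCT4, -1.11 for CCT5, -1.03 for CCT3 and -0.55 for CCT7. Leaving out untreated replicate 1 instead gave -1.61, -1.20, -0.93, -0.90 and -0.50 in the same order.

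TCP1, the alpha subunit and the first of the family to be described, as a product of the mouse t-complex, had 637 and 605 CPM with GNE987, against 531 and 539 CPM without. Both treated libraries were the higher ones, by a log2 fold change of 0.22 ± 0.12 that missed the threshold (adjusted p = 0.168, 95% interval -0.10 to 0.53). CCT8, the theta subunit, was at 444 and 429 CPM in treated libraries, against 403 and 390.3 CPM in untreated ones, a difference of 0.14 ± 0.12 (adjusted p = 0.345, interval -0.17 to 0.45). CCT6A, the zeta subunit, was at 388 and 364 CPM with GNE987, against 440.1 and 406 CPM without, a difference of -0.17 ± 0.13 (adjusted p = 0.271, interval -0.50 to 0.15). The groups did not overlap for any of the 8 genes, 6 lower and 2 higher with GNE987, but 46.6% of all tested genes were lower and 44.6% higher without overlap. The 3 intervals leave room for changes in either direction, so these genes are not shown to be constant.

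The sign of those 3 depended on the settings, and the labels mention no spike-in. Scaling by library size alone shifted genes by a median of -0.37 and upper-quartile scaling by 0.20 relative to TMM. With library size alone TCP1 was at -0.16 and CCT8 at -0.24, neither called, while CCT6A was called lower at -0.55 (adjusted p = 0.0131); upper-quartile scaling put CCT6A at 0.026 and called TCP1 higher at 0.41 (adjusted p = 0.0311). TCP1 was also called higher with the 10 CPM filter (0.39, adjusted p = 0.0340) and without untreated replicate 2 (0.24, adjusted p = 0.0241), and CCT6A was called lower without that library (-0.22, adjusted p = 0.0333). CCT2, CCT3, CCT4 and CCT5 were called lower in all 13 alternatives. For CCT3 and CCT5 the margin to the threshold was small with either treated library left out. TCP1 lies on chromosome 6 from 159778498 to 159789749, minus strand, CCT6A on chromosome 7 from 56051630 to 56063989, plus strand, and CCT8 on chromosome 21 from 29055805 to 29073797, minus strand.

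**Figure D1:**
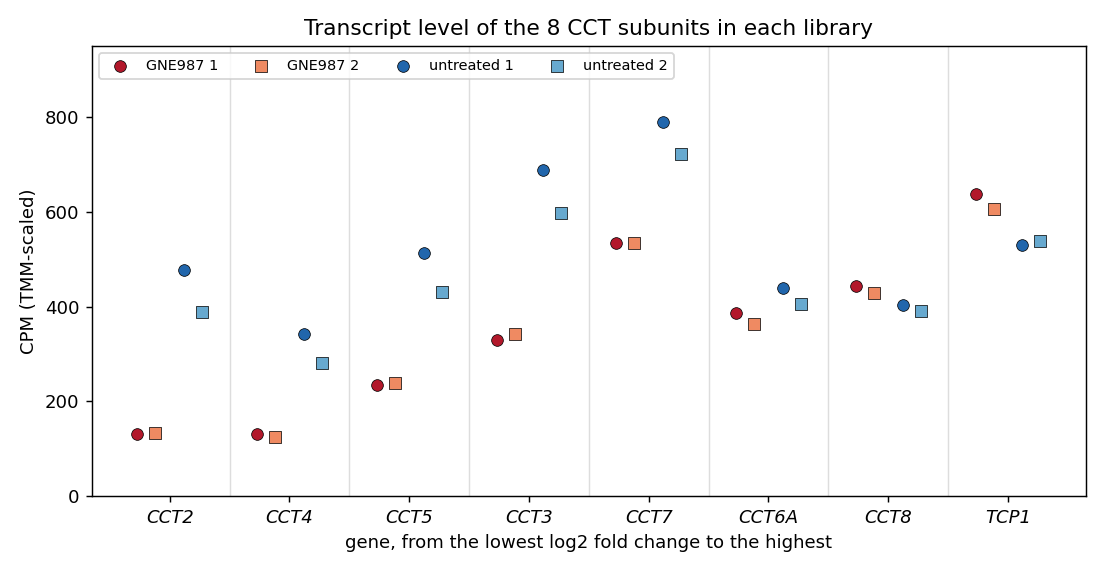
Level of each CCT subunit in CPM (TMM-scaled, linear axis from 0) in the 2 GNE987 and the 2 untreated libraries, genes ordered by log2 fold change. The treated points lie well below the untreated ones for CCT2 (132 and 133 CPM against 477 and 388 CPM) and slightly above them for TCP1 (637 and 605 CPM against 531 and 539 CPM).

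**Figure D2:**
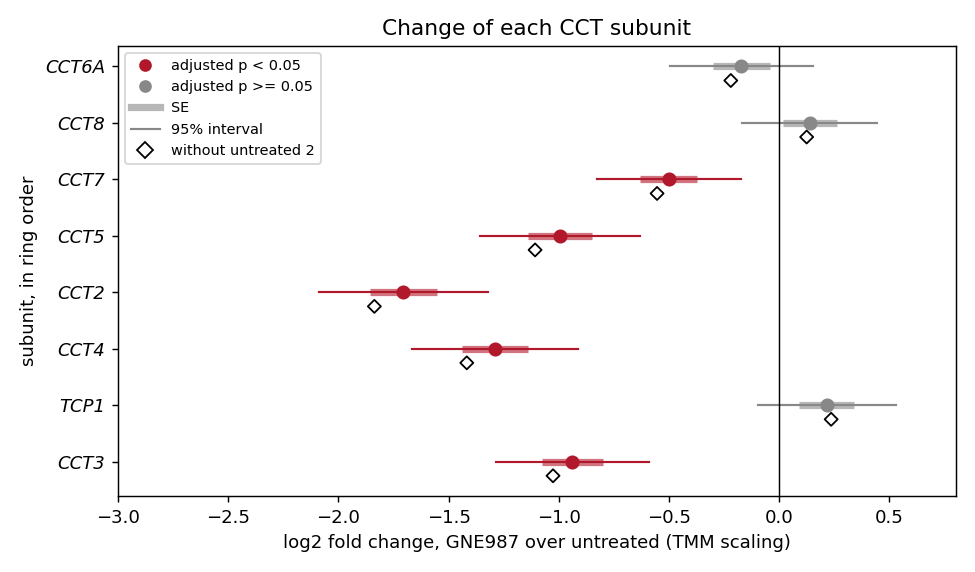
Log2 fold change of GNE987 over untreated for the 8 subunits in the order in which they stand in the ring, with SE (thick bars), 95% interval (thin bars) and the value without untreated replicate 2 (open diamonds). CCT7, CCT5, CCT2 and CCT4 form a run of called falls from -0.50 to -1.70, and CCT3 falls between the uncalled TCP1 and CCT6A.

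Since a ring takes the same number of every subunit, the messages were also set side by side per length, with the deposited FPKM. In untreated cells the levels of the 8 were fairly even. They ran from 88.0 FPKM for CCT5 to 220.04 FPKM for CCT7 in untreated replicate 1 and from 71.7 to 196 FPKM, again CCT5 and CCT7, in untreated replicate 2. With GNE987 the lowest was CCT2, at 30.2 and 30.5 FPKM, and the highest still CCT7, at 147 FPKM in both libraries. The highest level was thus 4.87 and 4.82 times the lowest in treated libraries, against 2.50 and 2.73 times in untreated ones. The standard deviation of the log2 level across the 8 was 0.88 and 0.86 in treated libraries, against 0.42 and 0.45 in untreated ones.

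The order of the subunits changed with it. CCT2 made up 4.38% ± 0.0858 of the summed FPKM of the 8 with GNE987, against 10.01% ± 0.688 without (SD, n = 2), where equal parts would be 12.5%. The share of CCT4 was 6.42% ± 0.12 in treated libraries, against 11.01% ± 0.712 in untreated ones, and that of CCT3 11.9% ± 0.498 against 16.03% ± 0.348. TCP1 took 17.96% ± 0.359 with GNE987, against 10.9% ± 0.959 without, CCT8 18.6% ± 0.155 against 11.9% ± 0.655, and CCT6A 13.7% ± 0.4 against 10.9% ± 0.221. The share of CCT7, 21.2% ± 0.289 against 21.1% ± 0.302, differed by less than the spread between replicates, and CCT5 stood at 5.78% ± 0.162 against 8.09% ± 0.389. In the treated libraries TCP1 and CCT8, at 127 and 122 FPKM and at 131 and 127 FPKM, were the third and the second highest. In untreated replicate 1 TCP1, CCT2 and CCT6A, at 108, 110.5 and 113 FPKM, were close together, and TCP1 stood above CCT2 in untreated replicate 2.

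Ratios within a library do not depend on its scaling. The FPKM ratio of CCT2 to CCT8 was 0.231 and 0.24 with GNE987, against 0.915 and 0.769 without, and that of CCT4 to TCP1 was 0.357 and 0.358, against 1.12 and 0.906. All 15 ratios of a fallen subunit to one of the 3 uncalled ones were lower in both treated libraries than in either untreated one. With 2 libraries against 2 an exact two-sided permutation test cannot go below p = 0.33, and the pairs were grouped by the outcome, so this is a description. No source used here gives the gene lengths behind the deposited FPKM, which affects levels between genes but not ratios between libraries.

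**Figure D3:**
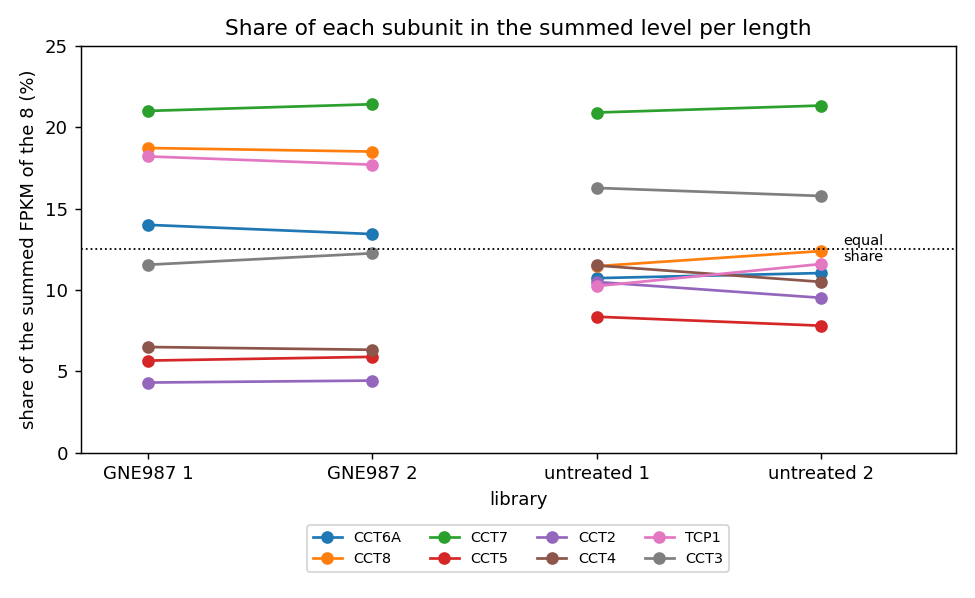
Share of each subunit in the summed FPKM of the 8 genes, in percent, in the 2 GNE987 and the 2 untreated libraries. Lines join the 2 libraries of a group, and the dotted line is the equal share of 12.5%. The shares spread from 4.32% to 21.4% in the treated libraries, against 7.81% to 21.3% in the untreated ones.

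The start regions of the genes were read from RefSeq (GRCh38.p14), whose table held 9 windows of 7 of the genes, that is all but CCT6A. The 250 bases before the annotated start are shown for the pair that fell the furthest, CCT2 and CCT4, and for TCP1 and CCT8, which were not called, so that the pairs can be compared. Each is written 5′ to 3′ on the strand of its gene, and capitals mark motif matches on either strand. The motifs were CCAAT (the letters of the CCAAT box), GGGCGG (GC box) and TGACG (the first letters of the cAMP response element TGACGTCA). The others were CCGGAAG (ETS family), GAANNTTC (a minimal heat shock element) and CACGTG (the E-box that MYC and its relatives bind).
CCT2, chr12:69585209-69585458, plus strand: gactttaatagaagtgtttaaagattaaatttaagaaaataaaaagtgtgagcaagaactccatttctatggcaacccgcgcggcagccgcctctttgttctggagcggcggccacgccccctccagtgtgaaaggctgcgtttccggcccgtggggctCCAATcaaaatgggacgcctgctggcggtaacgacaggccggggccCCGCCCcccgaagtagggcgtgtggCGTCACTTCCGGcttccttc
CCT4, chr2:61888657-61888906, minus strand: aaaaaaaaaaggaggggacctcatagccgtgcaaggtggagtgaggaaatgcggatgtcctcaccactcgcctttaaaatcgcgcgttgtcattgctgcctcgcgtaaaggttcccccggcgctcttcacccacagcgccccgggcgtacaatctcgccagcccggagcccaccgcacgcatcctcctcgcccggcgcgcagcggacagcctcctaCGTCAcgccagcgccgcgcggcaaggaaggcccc
TCP1, chr6:159789603-159789852, minus strand: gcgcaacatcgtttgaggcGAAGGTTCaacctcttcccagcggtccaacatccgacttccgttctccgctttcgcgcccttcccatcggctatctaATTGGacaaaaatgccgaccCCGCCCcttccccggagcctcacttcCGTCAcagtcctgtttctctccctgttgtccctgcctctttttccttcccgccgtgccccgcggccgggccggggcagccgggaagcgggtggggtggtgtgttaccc
CCT8, chr21:29073649-29073898, minus strand: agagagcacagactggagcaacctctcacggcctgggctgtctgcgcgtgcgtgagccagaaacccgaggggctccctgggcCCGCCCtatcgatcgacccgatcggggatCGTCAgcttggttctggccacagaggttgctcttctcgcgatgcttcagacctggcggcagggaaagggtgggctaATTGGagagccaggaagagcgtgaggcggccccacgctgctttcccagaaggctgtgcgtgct

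The windows follow the RefSeq starts, which differ from the GENCODE coordinates given above. Those of CCT3, CCT5 and CCT7, and a further one of CCT2, lie wholly inside the GENCODE span of the gene. For CCT5 the window begins at 10250287, while the GENCODE span begins at 10249921. A missing match in CCT3, CCT5 or CCT7 therefore does not cover the bases before the GENCODE start. The windows of CCT4, TCP1 and CCT8, and the one shown for CCT2, lie partly inside the GENCODE span. For CCT4 the window shown runs from 61888657 to 61888906, while the GENCODE span ends at 61888804. A missing match in these genes therefore covers only part of the 250 bases before the GENCODE start. The whole windows of 300 bases also hold 50 bases after the start. In them TGACG was found in 4 of the 7 genes, CCT2, CCT4, CCT8 and TCP1. Counted by window, that was 5 of the 9, beside 24.6% of all 35116 windows. CCAAT was found in 4 of 7 genes (CCT2, CCT3, CCT8 and TCP1), or 4 of 9 windows, beside 34.6% of all windows. GGGCGG was found in 5 of 7 genes (CCT2, CCT3, CCT7, CCT8 and TCP1), or 6 of 9 windows, beside 45.0%. CCT2 and CCT4 have 2 windows each, and those of CCT4 overlap. CCGGAAG was found in CCT2 alone (10.3% of all windows), where it directly adjoins the TGACG match. A GAANNTTC match lay in TCP1 and in a further start window of CCT2 (6.77% of all windows). CACGTG (7.26%) and the full TGACGTCA (1.85%) were found in none of the 9 windows. The motifs found in 4 or 5 of the 7 genes were thus all present in CCT2, which fell the most. They were also all present in TCP1 and CCT8, which were not called. Of these motifs CCT4, with the next largest fall, held only the first letters of the cAMP response element. The ETS letters were not found in TCP1 or CCT8, and the heat shock letters not in CCT8. Whether any motif goes with the falls was not tested. A match is a run of letters and not a site in use.

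A gene that starts within 1000 bases on the other strand lies beside 6 of the 8 subunits, and 5 of these neighbours have a row in the table. CCT4 and COMMD1, a regulator of copper handling and NF-kB, overlap by 81 bases at their starts. COMMD1 had 10.7 and 11.4 CPM with GNE987, against 31.2 and 24.0 CPM without, a log2 fold change of -1.32 ± 0.18 (adjusted p = 0.00234), next to -1.29 for CCT4. CCT5 starts 24 bases from FAM173B, a mitochondrial lysine methyltransferase, which fell by 1.74 ± 0.22 on the log2 scale (adjusted p = 0.00181), next to -0.99 for CCT5. Both members of these 2 pairs fell. Reads from the 81 shared bases of CCT4 and COMMD1 cannot be told apart without strand.

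In the other 3 pairs the partners were called differently. TCP1 starts 63 bases from MRPL18, a mitochondrial ribosomal protein, which had 46.4 and 49.9 CPM in treated libraries, against 114 and 95.2 CPM in untreated ones. MRPL18 fell (-1.12 ± 0.14, adjusted p = 0.00176), while TCP1 stood at 0.22 and was not called. CCT6A starts 26 bases from PSPH, the last enzyme of serine synthesis, which had 14.1 and 12.5 CPM with GNE987, against 37.4 and 37.2 CPM without. PSPH fell (-1.48 ± 0.13, adjusted p = 0.000653), while CCT6A, at -0.17, was not called. CCT7 starts 182 bases from PRADC1, which encodes a secreted glycoprotein. PRADC1 rose (0.77 ± 0.16, adjusted p = 0.00849) and CCT7 fell, but both calls were lost when either treated library was left out (PRADC1 adjusted p = 0.0620 and 0.0861). The differences between partners were not tested.

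**Figure D4:**
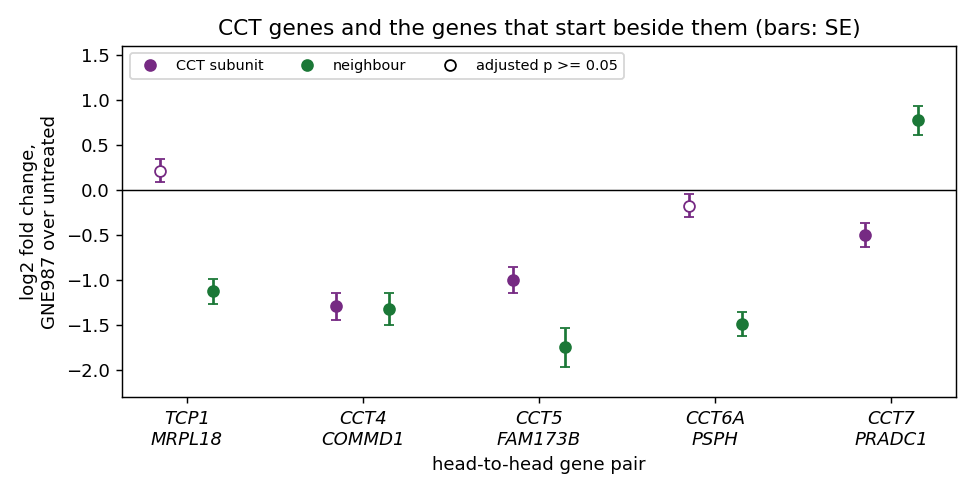
Log2 fold change of GNE987 over untreated with SE for 5 CCT genes (left point of each pair) and the gene that starts beside them on the other strand (right point). Open points did not pass the threshold. The pairs of CCT4 and CCT5 are both below 0, and PRADC1, at 0.77, lies above CCT7, at -0.50.

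Genes that overlap a subunit elsewhere had far fewer reads than the subunit. The TruSeq RNA kit named in the labels does not mark strand, so shared reads cannot be told apart. ACAT2, the cytosolic thiolase, overlaps the end of TCP1 by 558 bases, had 28.95 and 34.5 CPM with GNE987, against 82.6 and 79.6 CPM without, and fell (-1.35 ± 0.13, adjusted p = 0.000868). TSACC, a small cochaperone gene inside the span of CCT3, had at most 1.44 CPM in any library and was not called (adjusted p = 0.0699). The antisense and sense-intronic transcripts and the small nucleolar RNAs that lie within CCT4, CCT5, CCT6A, CCT8 and TCP1 and have a row were below 1 CPM throughout and were not tested.

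CCT genes have many pseudogene copies, and 8 named ones have a row. CCT6P1, a transcribed copy of CCT6A, had 28.9 and 32.2 CPM with GNE987, against 9.88 and 12.2 CPM without. It was higher in both treated libraries, with a log2 fold change of 1.47 ± 0.16 (adjusted p = 0.00135). CCT6P3, another transcribed copy, had 11.0 and 8.55 CPM with GNE987, against 1.93 and 2.62 CPM without, and also rose (2.10 ± 0.29, adjusted p = 0.00242). Both copies thus rose while CCT6A, at -0.17, did not pass. CCT8P1 had 1.25 and 1.38 CPM in treated libraries, against 2.02 and 1.73 CPM in untreated ones, and was not called (-0.51 ± 0.35, adjusted p = 0.235). The other 5 had at most 3 counts in any library.

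The reads of CCT6P1 equalled 7.45% and 8.85% of the CCT6A count in treated libraries, against 2.24% and 3.003% in untreated ones. Of its stretches of 50 bases 2.26% also occur in a CCT6A transcript, and for CCT6P3 the share was 3.38%. Counting could have split such reads between copies, so the level of CCT6A carries that uncertainty. With the counts of the named pseudogenes added to their subunits, CCT6A was at -0.07 (adjusted p = 0.64), the 5 falls were called as before and none of the 8 was called higher.

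The helpers of CCT were looked at in lists drawn from textbook knowledge, but chosen with earlier results of these data known. Prefoldin, the hexamer that delivers unfolded actin and tubulin to CCT, fell in 5 of its 6 subunits. Over all genes tested, 37.2% fell and 34.4% rose, which are also the shares to set beside the list counts below. PFDN2 had 6.30 and 7.54 CPM with GNE987, against 134 and 101 CPM without, a log2 fold change of -4.09 ± 0.20 (adjusted p = 0.000295). PFDN4 (-3.65 ± 0.19, adjusted p = 0.000295) and PFDN1 (-2.32 ± 0.15, adjusted p = 0.000329) fell as well. The one called higher was PFDN5, with 294 and 321 CPM in treated libraries, against 193 and 235 CPM in untreated ones (0.52 ± 0.15, adjusted p = 0.0259). The median of the 6 was -2.34. PFDN5 was not called with library size alone, without the filter on low counts, or with either treated library left out.

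The prefoldin-like complex and the R2TP cochaperone assemble large nuclear and kinase complexes. Of their 8 genes 6 fell and 1 rose (median -0.76), beside 37.2% lower and 34.4% higher over all genes. The one that rose was PDRG1 (0.63 ± 0.13, adjusted p = 0.00868). With either treated library left out 3 fell and none rose, at 10 CPM 4 fell, and PDRG1 was not called with library size alone. URI1, the scaffold of the prefoldin-like complex, was at -1.88 ± 0.13 (adjusted p = 0.000379). The ATPases RUVBL1 and RUVBL2 were at -1.70 ± 0.14 (adjusted p = 0.0005) and -0.83 ± 0.14 (adjusted p = 0.00395, and 0.0641 without GNE987 replicate 1). The phosducin-like proteins bind CCT directly and steer its clients. TXNDC9 fell (-0.94 ± 0.17, adjusted p = 0.00552) and so did PDCL3 (-0.65 ± 0.15, adjusted p = 0.0115, but 0.0724 and 0.102 without GNE987 replicates 1 and 2). PDCL, at 0.15, was not called (adjusted p = 0.296), but was called higher with upper-quartile scaling (0.35, adjusted p = 0.0484) and with the 10 CPM filter (0.32, adjusted p = 0.0418). With TMM scaling 2 of 3 tested members of that list fell, and 1 did with either treated library left out.

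Messages of CCT's clients were called in both directions. ACTB, cytoplasmic beta-actin and the best known client, had 13028 and 15157 CPM with GNE987, against 5124 and 6783 CPM without. It rose by 1.24 ± 0.20 on the log2 scale (adjusted p = 0.0039). The summed CPM of the 8 CCT messages was 2830 and 2769 with GNE987, against 4182 and 3754 without. Among 5 genes of the actin family 3 rose, ACTB, ACTG1 (1.13) and ACTR2 (0.79), and 2 fell. The actin-related genes ACTR3 and ACTR1A fell (-1.36 ± 0.13 and -0.80 ± 0.12, adjusted p = 0.000753 and 0.00284, the second 0.0543 without GNE987 replicate 1).

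Of 8 tubulin genes 4 rose, TUBB6, TUBB2A, TUBB4B and TUBA1A, and none fell (median 0.75), beside 34.4% higher and 37.2% lower over all genes. With library size alone 2 were called lower, and with either treated library left out 1 was called higher. TUBB4B, the most abundant of the 8 with GNE987, had 7254 and 8682 CPM there, against 617 and 2404 CPM in the untreated libraries. Its untreated pair was thus far apart, and it rose by 2.40 ± 0.63 (adjusted p = 0.0183). TUBB, a main beta-tubulin, had 2703 and 2901 CPM in treated libraries, against 3013 and 2960 CPM in untreated ones, and was not called (-0.09 ± 0.14, adjusted p = 0.563). With upper-quartile scaling TUBB was at 0.11 and with library size alone it was called lower at -0.47 (adjusted p = 0.00836). TUBA1A rose by 1.04 ± 0.18 (adjusted p = 0.00498) and TUBB2A by 2.46 ± 0.52 (adjusted p = 0.00931), but with GNE987 replicate 1 left out they were at 0.0514 and 0.0506, and with replicate 2 left out at 0.0520 and 0.0554. TUBB2A was at 172 and 184 CPM with GNE987, against 15.6 and 49.2 CPM without, so the untreated pair was itself far apart, and the log2 fold change of TUBB2A was 1.79 without untreated replicate 1 and 3.52 without untreated replicate 2. TUBB6, a minor beta-tubulin, rose at a low level, 3.48 and 2.83 CPM against 0.314 and 0.247 CPM (3.45 ± 0.42, adjusted p = 0.00173). After CCT, tubulins pass through dedicated cofactors, of which 2 fell, 1 rose and 4 of 7 rows were not called. ARL2, the small GTPase of that step, was at -1.59 ± 0.15 (adjusted p = 0.000729), TBCD at -0.45 ± 0.12 (adjusted p = 0.0184) and TBCC at 2.10 ± 0.48 (adjusted p = 0.0118). TBCC and TBCD lost the call with GNE987 replicate 1 left out (0.0626 and 0.151) and with replicate 2 left out (0.0636 and 0.158). TBCC also lost it with robust estimation (0.055), and its log2 fold change was 1.46 without untreated replicate 1 and 3.07 without untreated replicate 2. TBCD also lost it with upper-quartile scaling (0.114) and the 10 CPM filter (0.0608).

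Other known clients went both ways, with 5 of 13 lower, 5 higher and 3 not called (median -0.12). The 5 higher ones were STAT3, PLK1, CDC20, CCNE1 and GNB2, and the 5 lower ones MLST8, RPTOR, VHL, HDAC3 and GNB1. The number lower was 3 without GNE987 replicate 1 and 8 with library size alone. VHL, the tumour suppressor that CCT folds and that GNE987 recruits, had 42.3 and 39.9 CPM in treated libraries, against 81.8 and 81.2 CPM in untreated ones. VHL fell (-0.99 ± 0.11, adjusted p = 0.00129). MLST8 and RPTOR, WD-repeat subunits of the growth kinase mTORC1, fell (-2.72 ± 0.14 and -3.26 ± 0.18, adjusted p = 0.000295 for both).

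The related chaperonins of other compartments were lower in part. HSPD1, the mitochondrial chaperonin Hsp60, had 248 and 246 CPM with GNE987, against 1027 and 856 CPM without, a log2 fold change of -1.93 ± 0.15 (adjusted p = 0.000472). Its lid HSPE1 was at -2.83 ± 0.18 (adjusted p = 0.000315), and MKKS, a chaperonin-like protein of the Bardet-Biedl complex, at -1.63 ± 0.20 (adjusted p = 0.00181). Of 6 tested genes in that list 3 fell and none rose, while 1 was called higher with RLE scaling and 2 with upper-quartile scaling or without untreated replicate 2. CCT6B, the close relative of CCT6A known from testis, had 1.90 and 1.74 CPM in treated libraries, against 0.224 and 0.889 CPM in untreated ones, and missed the threshold (1.72 ± 0.65, adjusted p = 0.0566). HSF1, the heat shock factor that can drive CCT genes, fell (-2.16 ± 0.13, adjusted p = 0.000307), and so did HSF2 (-0.45 ± 0.16, adjusted p = 0.0464). The HSF2 call was lost in 6 of 12 alternatives, with RLE scaling (0.0882), upper-quartile scaling (0.195), the 10 CPM filter (0.144), DESeq2 (0.111) and GNE987 replicate 1 (0.0911) or 2 (0.255) left out. Over the 9 lists 27 of 58 tested rows fell and 15 rose, beside 37.2% lower and 34.4% higher over all genes, so the share called in either direction was close to the 71.6% of genes in general. With GNE987 replicate 1 left out these numbers were 18 and 7, and with replicate 2 left out 20 and 7. With library size alone they were 33 and 12.

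**Figure D5:**
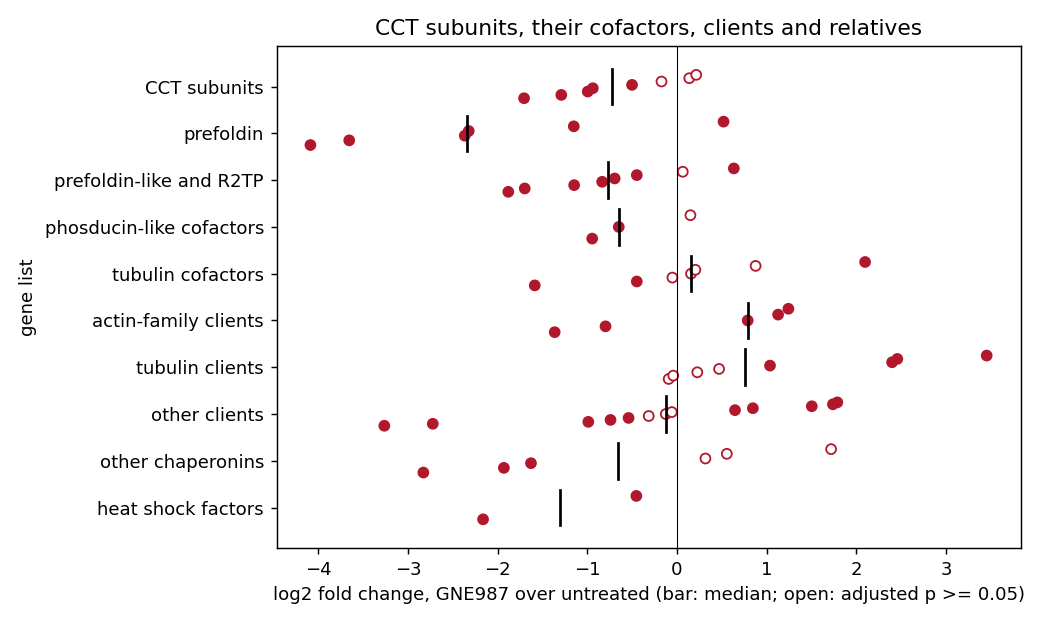
Log2 fold change of GNE987 over untreated for the 8 CCT subunits and for 9 lists of cofactors, clients and relatives. Each point is a gene row, filled where its adjusted p was below 0.05, and the vertical bar is the median of the list. The medians range from -2.34 for prefoldin to 0.79 for the actin family, with -0.72 for the CCT subunits.

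The mean profile of the 8 subunits over the 4 libraries, each gene centred on its own log2 mean, was -0.31 and -0.34 with GNE987, against 0.41 and 0.24 without. Among 3551 other genes that averaged 50 CPM or more, the 5 with the smallest root mean square difference from it were PIP4K2B, SEPHS1, UBTF, CDC25A and CORO1C, at 0.00622 to 0.0204 log2 units. The subunits themselves were at distances from 0.0781 for CCT7 to 0.524 for CCT2. Since the 5 genes were picked as the nearest of 3551, their smaller distances follow from that choice. The log2 fold changes of those 5 genes ran from -0.67 to -0.62, and none of them was called with either treated library left out.

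Of the 8 subunits, 5 have an adjusted p under 0.05 in the authors' deposited table. Per the authors' deposited table the log2 fold changes were -1.71 for CCT2, -1.29 for CCT4, -0.995 for CCT5, -0.94 for CCT3 and -0.50 for CCT7, and its adjusted p was 0.168 for TCP1, 0.339 for CCT6A and 0.411 for CCT8.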

How the data were processed

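The authors deposited 1 gene table with raw counts per gene and library, made from reads of polyadenylated RNA per the labels' protocols; these entered every test here. The deposited FPKM values, per the file headers, were used for levels per length, and the authors' log2 fold change and p-value columns only where they are named. HISAT2 2.2.0 and hg38 are listed in the submitters' processing notes, while the counting tool, its annotation and its strand setting were left unstated there and in the labels. A further 4 columns, of normalized values, were not used.

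Genes were kept with filterByExpr (minimum count 10, minimum total 15), which removed 10823, scaled with TMM and tested with the quasi-likelihood test of edgeR 4.0.16 in R 4.3.3 across all genes (2 residual degrees of freedom, Benjamini-Hochberg, threshold 0.05). In all, 11387 of 15910 genes changed, 5467 higher and 5920 lower; with library size alone 4103 were higher and 7164 lower. An SE is the log2 fold change divided by the square root of F. A floor of 3 counts equals 0.135 to 0.217 CPM; counting errors cover counting only, and no molecular identifiers are mentioned in the labels.

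Alternatives were 3 other scalings, no filter, a 10 CPM filter, DESeq2 1.42.0, a fit robust to outlying genes, a block for the replicate number, and leaving out every library in turn, with the filter reapplied and a lone library assumed to vary like the other group; adding pseudogene counts and a transcript length were chosen after seeing the data. Coordinates are from GENCODE 29. The subunits and lists were chosen with earlier results of these data known. The text names all 8 subunits; per list the 3 genes of smallest p with HSPD1, HSPE1, VHL, ACTB and TUBB; the 3 pseudogenes with most counts; overlapping or head-to-head genes; and the 5 nearest profiles. PFDN5, PDRG1 and the other genes that spell out a small count were named after their values were seen.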

Additional observations from a re-analysis of the deposited data

How the results depend on the processing

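CCT2, CCT3, CCT4 and CCT5 were lower and past the threshold in all 13 alternatives, over ranges of -2.08 to -1.51, -1.31 to -0.74, -1.67 to -1.09 and -1.37 to -0.80 on the log2 scale. CCT7 did not pass with upper-quartile scaling (-0.30) or the 10 CPM filter (-0.33), nor without either treated library; over the left-out libraries it ran from -0.55 to -0.50. TCP1 passed with upper-quartile scaling (0.41) and the 10 CPM filter (0.39), was at -0.16 with library size alone, and ran from 0.14 to 0.24 over the left-out libraries, passing at 0.24. CCT6A was at 0.026 with upper-quartile scaling and -0.55 with library size alone, where it passed, and ran from -0.23 to -0.15 over the left-out libraries. CCT8 was at -0.24 with library size alone and at -0.0081 without the filter. The number of subunits called higher was 1 in place of 0 with upper-quartile scaling and with the 10 CPM filter, and 0 to 1 over the left-out libraries. The median of the 8 was -0.52 with upper-quartile scaling, -1.10 with library size alone, -0.87 without the filter and -0.55 with the 10 CPM filter. These follow the shift of all genes under each setting, by 0.20, -0.37, -0.15 and 0.17.

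Without a treated library 6306 and 6370 genes changed, 2206 and 2209 of them higher; over the 4 left-out libraries the counts ran from 6306 to 13341 and from 2206 to 6816. The spread of log2 levels across subunits, 0.87 in treated and 0.43 in untreated libraries, was 0.87 and 0.41 without division by length, and 0.97 and 0.58 per length of the transcript with the longest coding sequence. Of other named genes, PDCL was at -0.22 with library size alone, and TUBB at 0.11 with upper-quartile scaling and 0.079 with the 10 CPM filter. With the replicate number as a block, 5 subunits were called lower as before (CCT7 at adjusted p = 0.0383) and 9801 genes changed. Same-numbered libraries deviated from their group means with a correlation of -0.00138. That value cannot decide whether the numbers pair the libraries, because pairs that share little deviation could give it too.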
